A study of Mus musculus with 6 samples.

Results

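Cholesterol in the brain is made on site, because plasma lipoproteins do not cross the blood-brain barrier, and the hippocampal RNA examined here was read for the 28 genes that make it, control its synthesis and remove it. These genes were chosen by name (the enzymes from acetyl-CoA to cholesterol, the SREBP control genes, and genes of sterol transfer, export and hydroxylation), and all 28 were found among the 54393 genes of the deposited table. The 6 poly(A) libraries, 3 wild type and 3 miR-301a-/-, came from hippocampus of untreated C57BL/6 mice aged 6 to 8 weeks. The labels do not say how the deletion was made, which sex the mice were, or whether each library came from a separate animal, so each p-value reflects only how far these libraries spread, part of which may be technical. A library is called by its genotype plus its title code, giving 1-1, 2-1 and 2-2 for wild type and 1-1, 2-2 and 3-1 for knockout.

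Synthesis runs from acetyl-CoA through mevalonate to farnesyl diphosphate and squalene, and from squalene through lanosterol to cholesterol. When sterols are low, the escort protein SCAP carries SREBP transcription factors from the endoplasmic reticulum to the Golgi, where they are cleaved and released to activate the enzymes; INSIG proteins hold SCAP back when sterols are high. In the brain, oligodendrocytes need much cholesterol for myelin, astrocytes export it on lipoproteins through ABC transporters, and neurons hydroxylate it so that it can leave the tissue. miR-301a is a microRNA encoded in an intron of Ska2, and relatives with the same seed, miR-130b and miR-301b, have been reported to repress the cholesterol exporter gene Abca1 in mouse liver.

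Values were read as FPKM-like, that is, scaled by gene length and library depth, and levels are compared between genes on that reading. If the lowest product of value and exonic length in a library is taken as 1 read, the depths were about 17108322 to 27781136 reads, and the 28 genes stood for about 319 to 12444 reads in a library. Transcripts of the mitochondrial genome took 16.1% to 22.8% of the summed values. Both genotypes had Mir301 listed at 0 throughout, which leaves the genotype labels unchecked, and its host gene Ska2 was at 5.86 ± 0.195 in wild type and 5.59 ± 0.503 in knockout (SD, n = 3 each; limma log2 fold change −0.06). The labelled tissue carried its markers: the hippocampal genes Prox1, Neurod6, Wfs1 and Fibcd1 summed to 141 to 217 in every library. Choroid plexus markers summed to 6.44 to 8.74 in wild type and to 19.7, 16.3 and 8.89 in knockout 1-1, 2-2 and 3-1. Most of that difference came from Ttr, at 1.68, 1.41 and 2.57 in wild type and 12.2, 10.7 and 2.74 in knockout. Folr1 and Kl overlapped between genotypes, and Clic6, Kcne2 and Aqp1 reached at most 0.265. Red cell markers were highest in knockout 1-1, at 441 against 159 to 295 in the other 5 libraries. The part of these differences in any result was not tested.

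The sterol genes did not differ between the genotypes beyond the error of 3 libraries per group. With limma and a threshold of 0.05 on the Benjamini-Hochberg adjusted p, 0 of the 28 were called, against 16 of 14708 tested genes (0.109%). All 28 passed the filter on low values (1 or more in at least 3 of 6 libraries). In knockout against wild type, 11 were higher and 17 lower in sign, and their median log2 fold change was −0.02, against −0.0038 over all tested genes, of which 51.2% were lower. The sign count turned to 16 higher and 12 lower, with a median of 0.0081, when the libraries were rescaled to a common total without mitochondrial transcripts. An unadjusted p under 0.05 was found for 1 of the 28 (3.57%), Insig1, against 5.72% of all tested genes and 3.11% for those lower in the knockout. The values of the genotypes did not overlap for 2 of the 28 (7.14%), Insig1 and Pmvk, both lower in the knockout, against 11.4% of all tested genes and 5.67% for those lower. These shares are near the background.

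**Figure D1:**
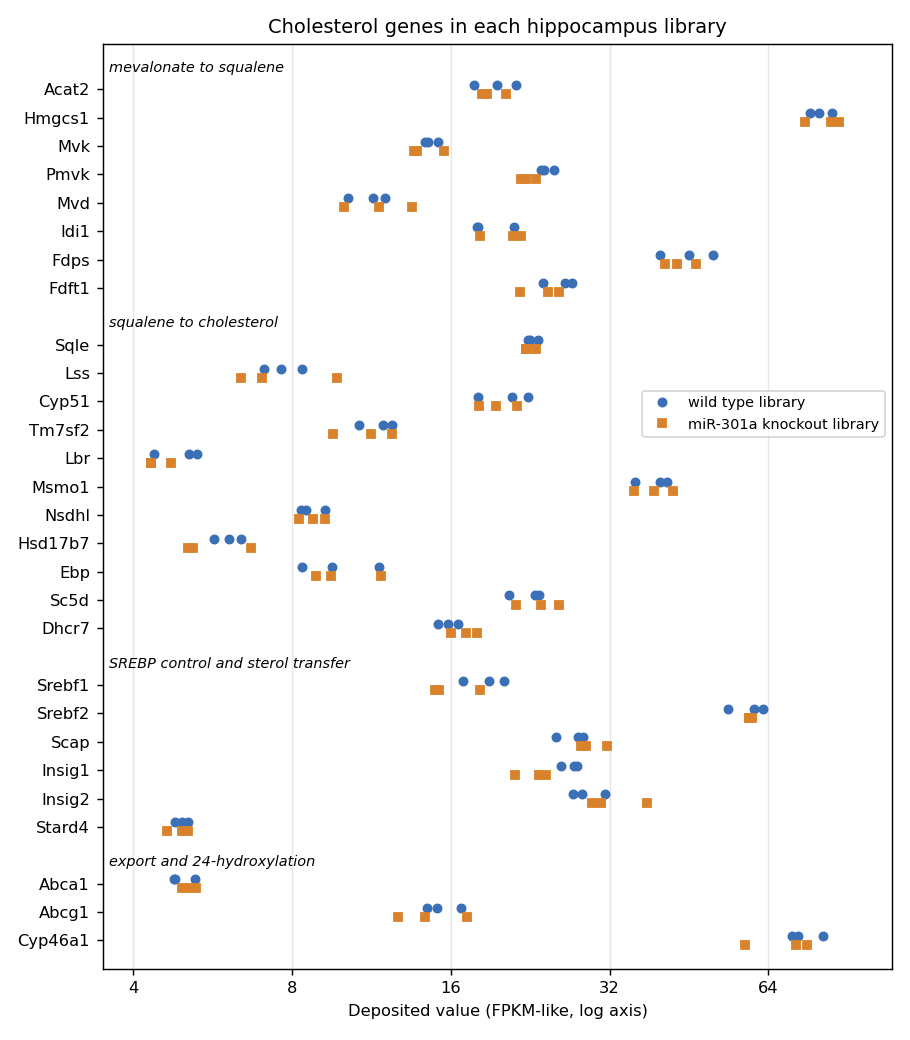
Deposited value (FPKM-like, log axis) of each of the 28 genes, grouped by role, with 1 point per library (circles wild type, squares knockout). Levels run from means of 4.69 for Lbr to 81.2 for Hmgcs1, and circles and squares separate only for Pmvk and Insig1.

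The intervals show how large a change the data leave possible. The log2 fold changes of the 28 genes lay between −0.23 for Insig1 and 0.16 for Insig2, with standard errors of 0.058 to 0.15. All 28 of the 95% intervals, each for 1 gene, lay within 0.5 of 0 on the log2 scale, from −0.45 for Srebf1 to 0.41 for Insig2. In the authors' deposited table the 28 genes had log2 fold changes from −0.23 to 0.17, each with a p-value of 1, as for 64.9% of all genes with a p-value in that table, and 27 of the 28 had the same sign as in limma. The authors' deposited table thus called 0 of the 28 at its adjusted p under 0.05, against 8 of its 30876 genes with a p-value (0.0259%).

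**Figure D2:**
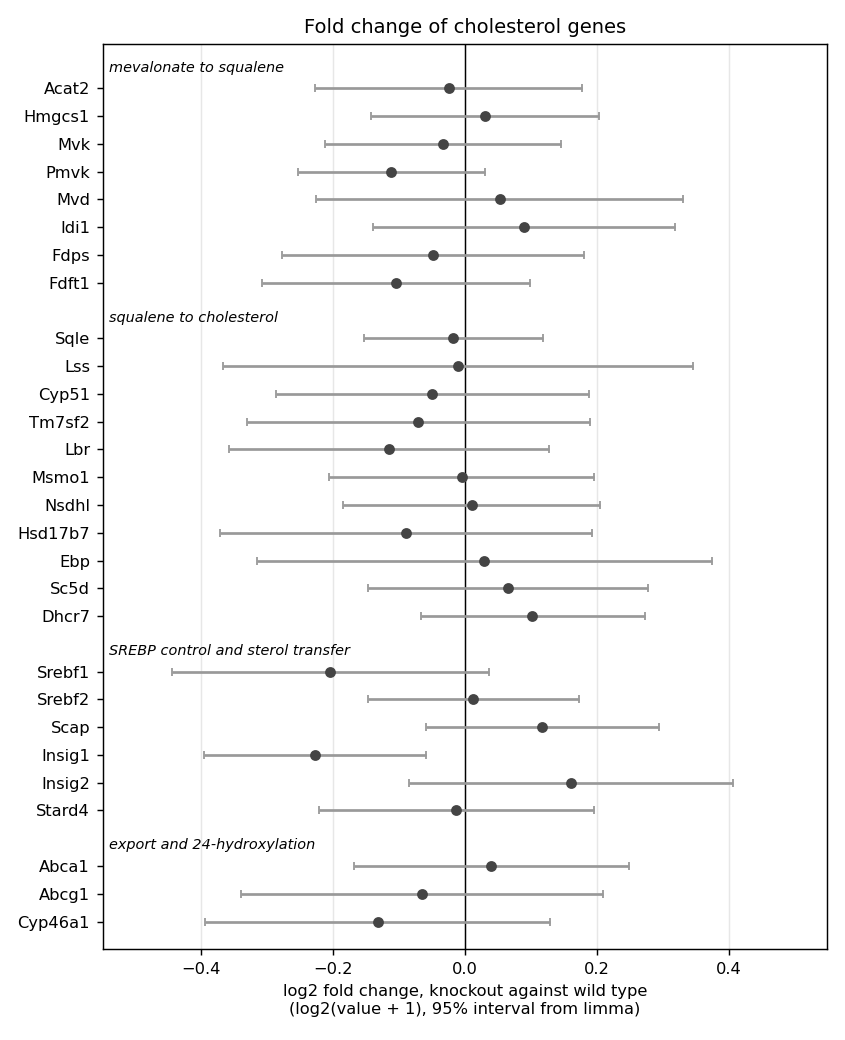
Log2 fold change on the log2(value + 1) scale (points) with the 95% interval from limma (bars) for each gene, knockout against wild type. The interval of Insig1, from −0.40 to −0.059, is the one that leaves out 0, before any adjustment for the number of genes tested.

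In the first stretch of the pathway, from acetyl-CoA to squalene, none of the 8 genes was called and the signs were mixed, 3 higher and 5 lower, with a median log2 fold change of −0.03. Hmgcs1, the synthase that makes HMG-CoA, had the highest level of all 28 genes. It was at 79.8, 76.7 and 84.4 in wild type 1-1, 2-1 and 2-2 and at 87.1, 75.2 and 84.1 in knockout 1-1, 2-2 and 3-1. The knockout values spanned the wild-type range and went past it at both ends, with means of 80.3 ± 3.90 and 82.1 ± 6.21 (SD, n = 3 each), a log2 fold change of 0.03 (limma SE 0.07, adjusted p = 0.972).

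Fdps, which joins isoprenoid units into farnesyl diphosphate, the branch point to sterols and to prenylated proteins, was second in this stretch, at 45.2, 39.8 and 50.2 in wild type and 42.9, 40.7 and 46.7 in knockout (libraries in the same order). The knockout values all lay inside the wild-type range (log2 fold change −0.05, limma SE 0.10, adjusted p = 0.964). Pmvk, the phosphomevalonate kinase (ENSMUSG00000027952.16, GRCm38 chromosome 3, 89454541 to 89469013), was at 25.1, 24 and 23.7 in wild type and at 23.2, 21.7 and 22.2 in knockout. Every knockout value was below every wild-type value, but the nearest ones, 23.2 and 23.7, were close. Its means were 24.3 ± 0.731 and 22.4 ± 0.756 (SD, n = 3 each), a ratio of 0.922 and a log2 fold change of −0.11 (limma SE 0.06, unadjusted p = 0.103, adjusted p = 0.893).

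The other members of this stretch overlapped between genotypes. Acat2, the cytosolic thiolase that starts the pathway, had means of 19.5 ± 1.78 and 19.1 ± 1.12 in wild type and knockout (SD, n = 3 each here and in the next 4 genes). The mevalonate kinase Mvk was at 14.6 ± 0.395 and 14.3 ± 1.07, and the decarboxylase Mvd, the lowest of the stretch, at 11.2 ± 0.927 and 11.7 ± 1.72. The isomerase Idi1 was at 19.0 ± 1.82 and 20.3 ± 1.87. Fdft1, the squalene synthase that commits farnesyl diphosphate to sterols, was at 25.8 ± 1.67 and 23.9 ± 2.12, a log2 fold change of −0.10 with an interval from −0.31 to 0.099.

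Among the 11 enzymes from squalene to cholesterol, none was called, 4 were higher and 7 lower in sign, and no gene separated the genotypes (median log2 fold change −0.01). Msmo1, the oxidase that removes methyl groups from lanosterol derivatives, was the most abundant. Its values were 35.8, 39.9 and 41.2 in wild type and 42.2, 35.6 and 38.8 in knockout, with both the highest and the lowest value in the knockout (log2 fold change −0.0051, limma SE 0.09, adjusted p = 0.995). Sc5d, a sterol desaturase near the end of the pathway, was at 20.6, 23.1 and 23.5 in wild type and 25.7, 21.3 and 23.7 in knockout, again overlapping (log2 fold change 0.07, limma SE 0.09, adjusted p = 0.951).

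Sqle, the squalene epoxidase and an oxygen-dependent control point, was the most even of the 28 genes. It was at 23.4, 22.6 and 22.4 in wild type and 22.2, 22.2 and 23.2 in knockout, with a log2 fold change of −0.02 and the smallest standard error of the 28 (limma SE 0.058, adjusted p = 0.981). Lss, which closes squalene epoxide into lanosterol, was the most variable. It was at 7.09, 8.34 and 7.61 in wild type and at 6.39, 9.73 and 7.03 in knockout, where library 2-2 stood above the other 5 libraries (log2 fold change −0.01, limma SE 0.15).

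Cyp51, the lanosterol demethylase, had means of 20.4 ± 2.22 and 19.7 ± 1.65 in wild type and knockout (SD, n = 3 each here and in the next genes). Tm7sf2 and Lbr encode sterol reductases for the same step, Lbr being also a receptor for lamin B at the inner nuclear membrane. Tm7sf2 was at 11.7 ± 0.894 and 11.1 ± 1.44, and Lbr, the lowest of the 28 genes, at 4.92 ± 0.483 and 4.46 ± 0.230. Tm7sf2 exceeded Lbr in every library, by a ratio of 2.1 to 2.84.

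Nsdhl, the dehydrogenase that removes a carboxyl group at the same carbon that Msmo1 oxidizes, was at 8.69 ± 0.495 and 8.76 ± 0.489, and Hsd17b7, the reductase of the resulting ketone, at 6.05 ± 0.364 and 5.66 ± 0.908. The isomerase Ebp was at 9.84 ± 1.69 and 10.05 ± 1.54. Dhcr7, the reductase that turns dehydrocholesterol into cholesterol, was at 15.1, 15.8 and 16.5 in wild type and 17.1, 16 and 17.9 in knockout. Its groups overlapped through a single knockout value, 16, and its log2 fold change of 0.10 was the highest of the 11 (limma SE 0.07, adjusted p = 0.893). Dhcr7 stayed higher without each library in turn, at 0.068 to 0.14.

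Over all 6 libraries the control genes Insig1 and Insig2 had the lowest and the highest fold change of the 28, an order that changed when some single libraries were left out. Insig1, the INSIG gene that SREBP itself activates (ENSMUSG00000045294.11, chromosome 5, 28071363 to 28078662), was at 25.9, 27.7 and 27.4 in wild type 1-1, 2-1 and 2-2 and at 23.5, 21.2 and 24.2 in knockout 1-1, 2-2 and 3-1. All knockout values lay below all wild-type values, with knockout 2-2 the lowest. The means were 27.0 ± 0.957 and 23.0 ± 1.59 (SD, n = 3 each), a ratio of 0.850 and a log2 fold change of −0.23 (limma SE 0.07, unadjusted p = 0.0154, adjusted p = 0.832). By p-value it ranked 257 among the 14708 genes tested. Without each library in turn its log2 fold change was −0.27 to −0.17, its unadjusted p 0.017 to 0.0495 and its adjusted p 0.766 to 0.993.

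Insig2, which does not depend on SREBP in the same way (ENSMUSG00000003721.14, chromosome 1, 121304353 to 121332589), was at 28.4, 31.3 and 27.3 in wild type and at 30.8, 37.7 and 29.6 in knockout. The groups overlapped, and knockout 2-2 was the highest of all (log2 fold change 0.16, limma SE 0.10, adjusted p = 0.893). Without each library in turn the log2 fold change of Insig2 was 0.057 to 0.23, lowest without knockout 2-2. The ratio of Insig1 to Insig2, a comparison chosen after the values were seen and given without a test, was 0.913, 0.884 and 1.01 in wild type and 0.763, 0.562 and 0.819 in knockout. Knockout 2-2 held both the lowest Insig1 and the highest Insig2 value.

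Srebf2, the SREBP gene that mainly serves cholesterol synthesis, had close means, with a wider spread in wild type (58.7 ± 4.47) than in knockout (59.1 ± 0.502; SD, n = 3 each). It was at 62.4, 53.7 and 60.04 in wild type and at 59.7, 58.9 and 58.8 in knockout, with every knockout value inside the wild-type range (log2 fold change 0.01, limma SE 0.07, adjusted p = 0.983). Srebf1, whose products mainly serve fatty acid synthesis (ENSMUSG00000020538.15, chromosome 11, 60199089 to 60222581), was at 18.9, 20.2 and 16.9 in wild type and 18.2, 15.2 and 14.9 in knockout. Knockout 1-1 lay within the wild-type range and the other two below it. Its log2 fold change was −0.20 (limma SE 0.10, unadjusted p = 0.0838, adjusted p = 0.893), and ran from −0.29 without knockout 1-1 (unadjusted p = 0.0208 in limma) to −0.15 without wild type 2-1 (unadjusted p = 0.231), and was −0.27 without wild type 2-2 (unadjusted p = 0.047).

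Scap, the escort of SREBP, was at 28.5, 27.9 and 25.3 in wild type and 28.9, 28.2 and 31.6 in knockout, overlapping at 28.2 (log2 fold change 0.12, limma SE 0.07, adjusted p = 0.893). Stard4, a carrier that moves sterol between membranes and is itself an SREBP target, was at 4.79, 4.95 and 5.09 in wild type and 4.64, 5.09 and 4.94 in knockout, with a log2 fold change of −0.01. Over the 6 control genes 3 were higher and 3 lower in sign, and the median log2 fold change was −0.00018.

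**Figure D3:**
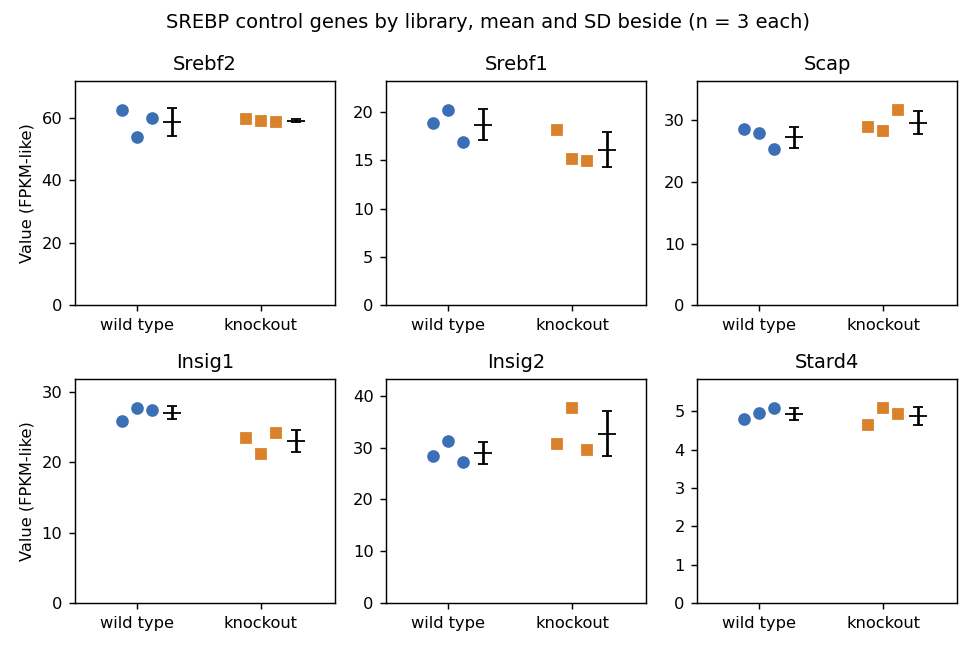
Deposited value (FPKM-like, linear axis from 0) of the 6 control genes by library, in title-code order within each genotype (1-1, 2-1, 2-2 for wild type and 1-1, 2-2, 3-1 for knockout), with the mean and SD of 3 libraries beside the points. Insig1 is the gene of the 6 whose groups separate, at 25.9 to 27.7 in wild type and 21.2 to 24.2 in knockout.

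Most of the sterol genes with a promoter found held a CCAAT box in at least 1 promoter, a feature that the choice by name did not use. SREBP binds sterol regulatory elements in these promoters, often beside the factor NF-Y, which binds CCAAT. RefSeq promoters on GRCm38.p6, reaching from 250 bases before to 50 bases after each start, were found for 23 of the 28 genes (31 promoters). CCAAT, searched on both strands, was present in 20 of the 23 genes (87%), against 41.1% of all 27025 genes with a promoter in the table. Those 27025 genes (32851 promoters) were not limited to the genes tested here. A gene counted if any of its promoters matched, and the 23 genes had slightly more promoters per gene. The strict sterol regulatory letters TCACNCCAC, also on both strands and able to share at most 1 end letter with a CCAAT match, were found in Hmgcs1 alone of the 23, and in 1.44% of all genes. The windows around these matches in Hmgcs1 and in Insig1, the gene with the lowest p, are shown with the matched letters in capitals. The Hmgcs1 match starts 137 bases before the RefSeq start, and the Insig1 match, a CCAAT on the opposite strand, 216 bases before it.
Hmgcs1, chr13:119690188-119690247, plus strand: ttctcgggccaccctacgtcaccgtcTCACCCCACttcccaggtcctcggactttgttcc
Insig1, chr5:28071170-28071229, plus strand: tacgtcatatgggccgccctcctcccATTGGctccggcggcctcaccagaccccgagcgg
Hmgcs1, with both kinds of box in its promoter, had the log2 fold change of 0.03 given above, and Insig1 that of −0.23.

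Among the 28 genes, the heptamer that pairs with the miR-301a seed occurred in export genes, and the shorter hexamer in more. The mature miR-301a-3p and 3 relatives are shown with the seed, bases 2 to 8, in capitals (RefSeq, GRCm38.p6). All 4 carry the same seed. Mature microRNAs were not measured by this assay.
miR-301a-3p: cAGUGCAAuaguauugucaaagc
miR-130a-3p: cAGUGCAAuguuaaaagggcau
miR-130b-3p: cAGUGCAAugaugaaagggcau
miR-130c: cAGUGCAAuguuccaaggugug
The heptamer that pairs with this seed, TTGCACT, was searched on the sense strand of the longest annotated 3' UTR of each gene. It was present in 2 of the 28 genes (7.14%), Abca1 and Abcg1, against 12.2% of 12744 tested genes with a 3' UTR. The UTRs of the 28 genes were of ordinary length (median 1217 bases, against 1250). Sites are shown as 30-base windows on the gene's strand, with the matched letters in capitals. Those of Abca1 lay at bases 53 and 2962 of a 3' UTR of 3156 bases, and that of Abcg1 at base 1163 of 3703. The Abcg1 site is followed by an A, which makes it the 8-mer form TTGCACTA, held by 2.55% of the tested genes. That A is not part of the pairing with the seed. The hexamer TGCACT, which lies within the heptamer, was present in 12 of the 28 (42.9%), against 35.3% of the tested genes. Beside the exporters these were Idi1, Fdft1, Lss, Lbr, Hsd17b7, Sc5d, Srebf1, Srebf2, Insig1 and Cyp46a1, with 1 or 2 matches each.
Abca1 site near the stop codon, chr4:53033877-53033906, minus strand: agagcgaggtcttcctTTGCACTgtgtcaa
Abca1 site near the UTR end, chr4:53030968-53030997, minus strand: tgtaatggatctatttTTGCACTggaatat
Abcg1 site, chr17:31115432-31115461, plus strand: ccccacctgtaagtaaTTGCACTAgatcat

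Neither exporter with a site changed detectably. Abca1, which loads cholesterol onto lipid-poor apolipoproteins (ENSMUSG00000015243.4, chromosome 4, 53030787 to 53159895), was at 5.24, 4.79 and 4.77 in wild type and at 5.26, 5.09 and 4.94 in knockout. The highest wild-type value lay just under the highest knockout value, and the means were 4.93 ± 0.264 and 5.10 ± 0.161 (SD, n = 3 each). Its log2 fold change was 0.04 (limma SE 0.09, 95% interval −0.17 to 0.25, adjusted p = 0.971).

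Abcg1, which passes cholesterol on to lipidated particles (ENSMUSG00000024030.7, chromosome 17, 31057675 to 31117988), was at 15.0, 16.7 and 14.4 in wild type and 12.7, 14.3 and 17.2 in knockout. The knockout held both the lowest and the highest value, with a log2 fold change of −0.07 (limma SE 0.12, 95% interval −0.34 to 0.21, adjusted p = 0.958). Abcg1 turned to 0.027 without knockout 1-1. The level of Abcg1 exceeded that of Abca1 in every library, by a ratio of 2.42 to 3.48.

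Cyp46a1, the neuronal cholesterol hydroxylase (ENSMUSG00000021259.5, chromosome 12, 108334381 to 108362234), was second in level among the 28 genes. It was at 81.1, 73.0 and 70.8 in wild type and at 57.9, 75.8 and 72.3 in knockout. Knockout 1-1 was the lowest of the 6 libraries, and the other knockout libraries lay within the wild-type range (means 75.0 ± 5.45 and 68.7 ± 9.48, SD, n = 3 each; log2 fold change −0.13, limma SE 0.11, adjusted p = 0.918). Without knockout 1-1 the log2 fold change of Cyp46a1 was −0.016. That library was also the highest in red cell markers, with the sums given above. Neuron markers summed to 2350.0 in it, the highest of the 6 libraries, which ran from 1949.5 in knockout 2-2. The single neuron markers were mixed in it. Snap25 (1038), Syt1 (373) and Slc17a7 (582) were at their highest, and Gad1 (109) lay within the wild-type range. Tubb3 (142) was below every wild-type value, and Rbfox3 was at 105, against 105 to 135 in wild type. The part of red cells and neurons in the Cyp46a1 value was not tested.

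The enzymes differed between libraries of 1 genotype. Taken as log2(value + 1) minus the mean of wild type, the median of the 19 synthesis enzymes was −0.03, −0.01 and 0.06 in wild type 1-1, 2-1 and 2-2 and −0.05, −0.09 and 0.06 in knockout 1-1, 2-2 and 3-1, while the median of all tested genes stayed within −0.01 and 0.0055. Knockout 2-2 held the lowest value of 8 of the 19 enzymes and knockout 3-1 of 0, although these libraries share a genotype. Summed over the 19 enzymes, the levels were 401, 399 and 427 in wild type and 416, 382 and 422 in knockout. Knockout 2-2 also had the lowest depth and the lowest sum over all genes, 554000 against 575000 to 628000 in the other libraries. The part of depth and of that total in the enzyme values was not tested.

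Myelin transcripts, which stand for the oligodendrocytes that use much of this cholesterol, were also lowest in knockout 2-2 and highest in wild type 2-2. The 10 myelin markers summed to 2745, 3237 and 4147 in wild type and to 3419.7, 2275 and 3203 in knockout, and their medians from the wild-type mean were −0.30, −0.02 and 0.33 and 0.08, −0.55 and −0.04. The myelin medians spread much more than those of the enzymes. In knockout 1-1 and 3-1 the signs were opposite, with enzyme medians of −0.05 and 0.06 and myelin medians of 0.08 and −0.04. Neuron and microglia markers also had their lowest median in knockout 2-2, at −0.16 and −0.26. The remaining marker lists were lowest in a wild-type library. All 10 were lower in sign in the knockout (median log2 fold change −0.18), with 0 called, 0 at an unadjusted p under 0.05 and all groups overlapping. In knockout 1-1, 2-2 and 3-1, 8, 0 and 4 of the 10 markers lay above their wild-type mean. In bulk tissue a difference in oligodendrocyte number cannot be told apart from a difference in RNA per cell. The part of myelin in the enzyme values was not tested. Without each library in turn, the median log2 fold change ran from −0.067 to 0.0081 for the 8 genes up to squalene and from −0.054 to 0.012 for the 11 after it, and was −0.0072 and 0.0054 without knockout 2-2.

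**Figure D4:**
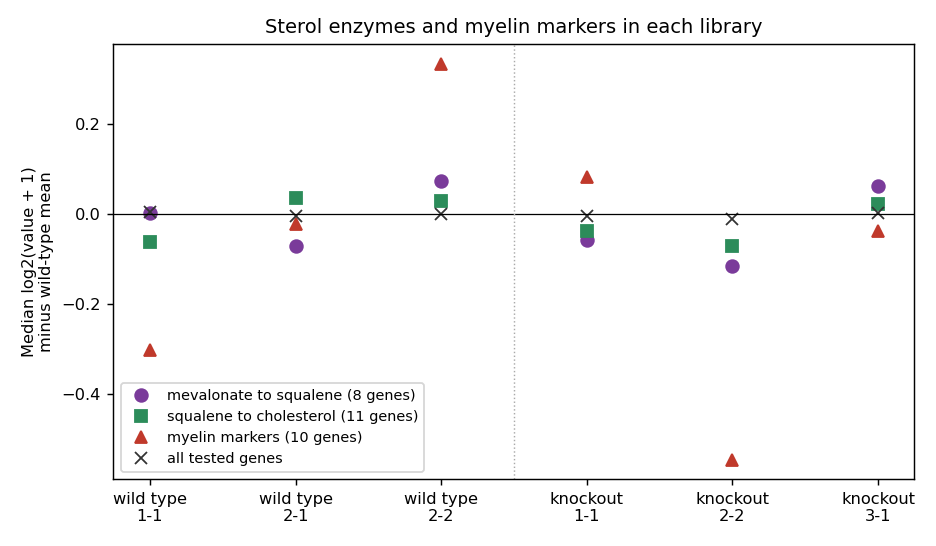
Median, over each gene list, of log2(value + 1) minus the wild-type mean, in each of the 6 libraries (dotted line between genotypes). Knockout 2-2 is lowest for both enzyme groups (−0.12 and −0.07) and for myelin markers (−0.55), and the all-gene median stays near 0.

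Other sterol and lipid genes, from a list of 37 drawn from the pathway, showed no call either. Of these, 35 passed the filter on low values (Idi2 and Ch25h did not), 18 were higher and 17 lower in sign, and 0 were called by limma, with a median log2 fold change of 0.0015. Apoe, the main apolipoprotein of the brain and the most abundant of the list, was at means of 1976 and 1987 (log2 fold change 0.0030, limma SE 0.10). Scd2, the brain's fatty acid desaturase and next in level, had a log2 fold change of 0.0058, within the 9 fatty acid genes, 5 higher and 4 lower in sign. The next in level were the lipoprotein receptor Lrp1, at means of 73.1 and 73.4, and the desaturase Fads1, at 64.3 and 66.2. The small signs of Apoe and Scd2 turned when single libraries were left out.

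Among the 35, 2 had an unadjusted p under 0.05 in limma, a share like the 5.72% of all tested genes, and 1 of them is described here. Mbtps2, the protease that makes the second cut of SREBP in the Golgi (ENSMUSG00000046873.18, chromosome X, 157535371 to 157598715), was at 9.34, 9.68 and 8.53 in wild type and 10.5, 11.3 and 12.1 in knockout. Its groups did not overlap, with every knockout value above every wild-type value (ratio 1.23, log2 fold change 0.27, limma SE 0.09, unadjusted p = 0.0159, adjusted p = 0.832), and its longest 3' UTR, of 3148 bases, held 1 match to TTGCACT. Without 1 library the log2 fold change of Mbtps2 was 0.22 to 0.32, with unadjusted limma p-values of 0.0146 to 0.0595. The transporter Abcg4 and the acetate ligase Acss2 also separated the genotypes, with smaller log2 fold changes of 0.14 and 0.054 (limma adjusted p = 0.893 and 0.927). Of the 35, 3 higher and 1 lower in the knockout had groups that did not overlap, a share like the 11.4% of all tested genes.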

How the data were processed

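Per the submitters' processing notes, the tools were bcl2fastq, HISAT2 2.1.0 and HTSeq, on mm10, without stated roles; the series' own design text names other programs. Of the values the authors deposited, the unit is not named, and they were read as FPKM-like because they are not whole, their column sums differ between libraries, and the lowest values times exonic length bunch in steps. How reads were assigned between strands or similar genes is not stated in those sources. The deposited table also holds the authors' log2 fold change and p-value per gene, from an unnamed test.

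limma 3.58.1 (R 4.3.3) was run on log2(value + 1), with genotype as the single factor, trended empirical Bayes and two-sided p-values. It tested 14708 genes, those reaching 1 in 3 or more libraries, and all of them entered the Benjamini-Hochberg adjustment. Fold changes on this scale understate the change of genes with low values. The 28 genes and all lists were chosen with earlier results of these data known, so no list was tested as a set. Full statistics were given for genes with an unadjusted p under 0.05 or groups that do not overlap, for the 2 most abundant genes of each role, and for Srebf2, Insig1, Abca1 and Abcg1; Sqle, Dhcr7, Srebf1 and Scap were added after their values were seen, and other genes are given mainly by values. Of the other sterol genes, those with an unadjusted p under 0.05 and the 4 most abundant were to be named, and Abcg4 and Acss2 were added after their values were seen. Some genes of that list enter its counts but are not reported here by name. Positions and 3' UTRs are from GENCODE M21 (GRCm38), in which all 54393 gene identifiers were found. Tables used Python 3.11.15 and pandas 2.3.3. Exact read counts were not used here, so no counting interval is given. Alternatives changed the pseudocount, filter, scaling, trend and libraries.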

Additional observations from a re-analysis of the deposited data

How the results depend on the processing

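None of the 28 genes was called in limma under any alternative run (lowest adjusted p 0.755 to 1), and Insig1, Pmvk, Srebf1, Fdft1, Lbr, Hsd17b7 and Cyp46a1 stayed lower and Dhcr7, Idi1, Sc5d, Scap, Insig2 and Abca1 higher in sign in each. The counts called over all genes, 8 higher and 8 lower, became 2 and 2 without a filter and 3 and 1 with the stricter filter, 5 lower without a trend, and 2 to 9 higher and 2 to 8 lower without 1 library. Genes at an unadjusted p under 0.05 among the 28 were 1 to 2 without 1 library. The codes 1-1 and 2-2 occur in both genotypes, but libraries sharing one did not deviate together (r = −0.0986 and −0.0606 across genes). With the code as a replicate block over those 4 libraries, 0 genes were called higher, 0 lower, 0 of the 28 had an unadjusted p under 0.05, and the median log2 fold change was −0.052 for the 28 (−0.041 to −0.0040 without 1 library), −0.10 up to squalene, −0.026 from squalene on, −0.032 for the control genes (−0.031 to 0.018 without 1 library) and −0.12 for export and hydroxylation (−0.17 to 0.020 without 1 library). The cause of these shifts was not tested.

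Log2 fold changes that changed sign reached −0.11 for Mvd in the block fit and 0.10 for Lss without knockout 1-1. These are about the size of the main change of Dhcr7, 0.10. The reversed values are listed here by fit. In the block fit they were −0.098 for Ebp, −0.021 for Hmgcs1, 0.093 for Lss, 0.011 for Msmo1, −0.11 for Mvd, −0.045 for Srebf2 and −0.034 for Scd2. Rescaled without mitochondrial genes they were 0.00051 for Acat2, 0.014 for Lss, 0.021 for Msmo1, 0.0072 for Sqle and 0.0089 for Stard4. For the fits without 1 library, the full range of each gene with a reversal is given, so 1 end of it keeps the main sign. These ranges were −0.17 to 0.027 for Abcg1, −0.089 to 0.036 for Acat2, −0.13 to 0.015 for Cyp51, −0.081 to 0.15 for Ebp, −0.133 to 0.0295 for Fdps, −0.013 to 0.092 for Hmgcs1, −0.17 to 0.10 for Lss, −0.065 to 0.056 for Msmo1, −0.044 to 0.15 for Mvd, −0.0901 to 0.00027 for Mvk, −0.025 to 0.051 for Nsdhl, −0.039 to 0.00039 for Sqle, −0.049 to 0.057 for Srebf2, −0.038 to 0.018 for Stard4, −0.15 to 0.024 for Tm7sf2, −0.044 to 0.085 for Scd2 and −0.075 to 0.063 for Apoe. Genes outside the 28 were added to these fits after the data were seen.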
